A study of Mus musculus with 4 samples.

Results

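The clustered protocadherins are cell surface proteins of the cadherin superfamily, encoded in 3 neighbouring gene arrays called alpha, beta and gamma. Members were the rows of the deposited expression table that are annotated as protein coding and whose symbol begins with Pcdha, Pcdhb, Pcdhga, Pcdhgb or Pcdhgc, counted once per gene identifier. The rule found 57 of 46603 genes, of which 14 were in the alpha, 22 in the beta and 21 in the gamma cluster. All 57 lie on the plus strand of mouse chromosome 18 (mm10, GENCODE M21), with alpha at 36930184 to 37187661, beta at 37264938 to 37524479 and gamma at 37661793 to 37841873.

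The study sequenced polyadenylated RNA of mouse embryonic stem (ES) cells, 2 wild-type cultures (Gsk3a+/+;Gsk3b+/+) and 2 cultures lacking both genes of glycogen synthase kinase 3 (Gsk3a-/-;Gsk3b-/-). Both genotypes were grown with serum and leukemia inhibitory factor on gelatin with irradiated mouse embryonic fibroblasts as feeders, so feeder RNA can be in every library. The labels give the cells as Embryonic Day 16 and the design text as E15, call the samples biological replicates, and name no clone or line. The deposited table compares a group A with a group B and does not say which genotype each is, so every difference is given as B over A.

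Each alpha and gamma gene has its own promoter and its own large first exon, which encodes the extracellular cadherin repeats, the membrane span and part of the cytoplasmic tail, and this exon is spliced to small constant exons shared by the whole cluster. Beta genes have a single coding exon and no constant part. In neurons, combinations of these proteins give single cells different surface identities, and matching proteins on facing membranes bind each other. The variable genes are chosen by promoter in a process that involves CTCF, cohesin and DNA methylation, whereas the C-type genes at the end of the alpha and gamma clusters (Pcdhac1, Pcdhac2, Pcdhgc3, Pcdhgc4 and Pcdhgc5) are regulated differently.

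The 4 libraries, named A1, A2, B1 and B2 without any link to the replicate numbers of the labels, held 112655210 to 146326307 counts assigned to genes. Their reads were recovered from the deposited group means and are given as normalized counts, which are reads divided by a size factor of the library. Gsk3a was at 6353 and 7104 normalized counts in group A and at 1697 and 1347 in group B, with a log2 fold change of -2.14 (adjusted p = 4.90e-24, as in the authors' deposited table). Gsk3b was at 5438 and 6285 in group A and at 5051 and 5002 in group B, a log2 fold change of -0.22 (adjusted p = 0.984 in the same table). Log2 fold changes are those of the authors' deposited table unless limma is named, and every adjusted p is over all genes tested. ES cell markers summed to 8.13e5 to 9.42e5 normalized counts per library. Utf1 was the 1 of 10 that fell in B in the authors' deposited test, beside 1.92% of all genes with a count. All 942 protein-coding genes of the X chromosome, all 183 of the Y and all 13 of the mitochondrial genome are listed at 0, so no X-linked gene could be read.

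The gamma cluster carried nearly all clustered protocadherin reads in every library. Gamma genes held 92.1% of these reads in A1 (Wilson 95% interval 91.1 to 92.9), 94.0% in A2 (93.2 to 94.8), 94.6% in B1 (93.8 to 95.3) and 90.1% in B2 (89.1 to 91.1). Beta genes held 6.89% and 5.52% in the A libraries and 5.11% and 8.98% in the B libraries. Alpha genes held 1.04% and 0.452% in A and 0.268% and 0.898% in B. The intervals cover counting error only. The clusters kept the order gamma, beta, alpha in all 4 libraries. In total the 57 genes took 24.1, 24.7, 23.0 and 29.7 reads per 1e6 counted reads in A1, A2, B1 and B2, from 3455, 3317, 3363 and 3342 reads.

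Of the 57 genes, 52 had a count in at least 1 library, 37 had one in all 4, and 26 reached a mean of 10 normalized counts. Those 26 were 20 of the 21 gamma genes, 6 of the 22 beta genes and none of the 14 alpha genes. The median mean normalized count was 105 for gamma, 5.00 for beta and 0.673 for alpha genes. Pcdha3, Pcdha8, Pcdhac1, Pcdhb12 and Pcdhga10 are listed at 0 in all libraries. For a gene whose reads could be counted, a count of 0 allows up to 0.0205 to 0.0266 reads per 1e6 counted reads, depending on the library and for counting error only.

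**Figure D1:**
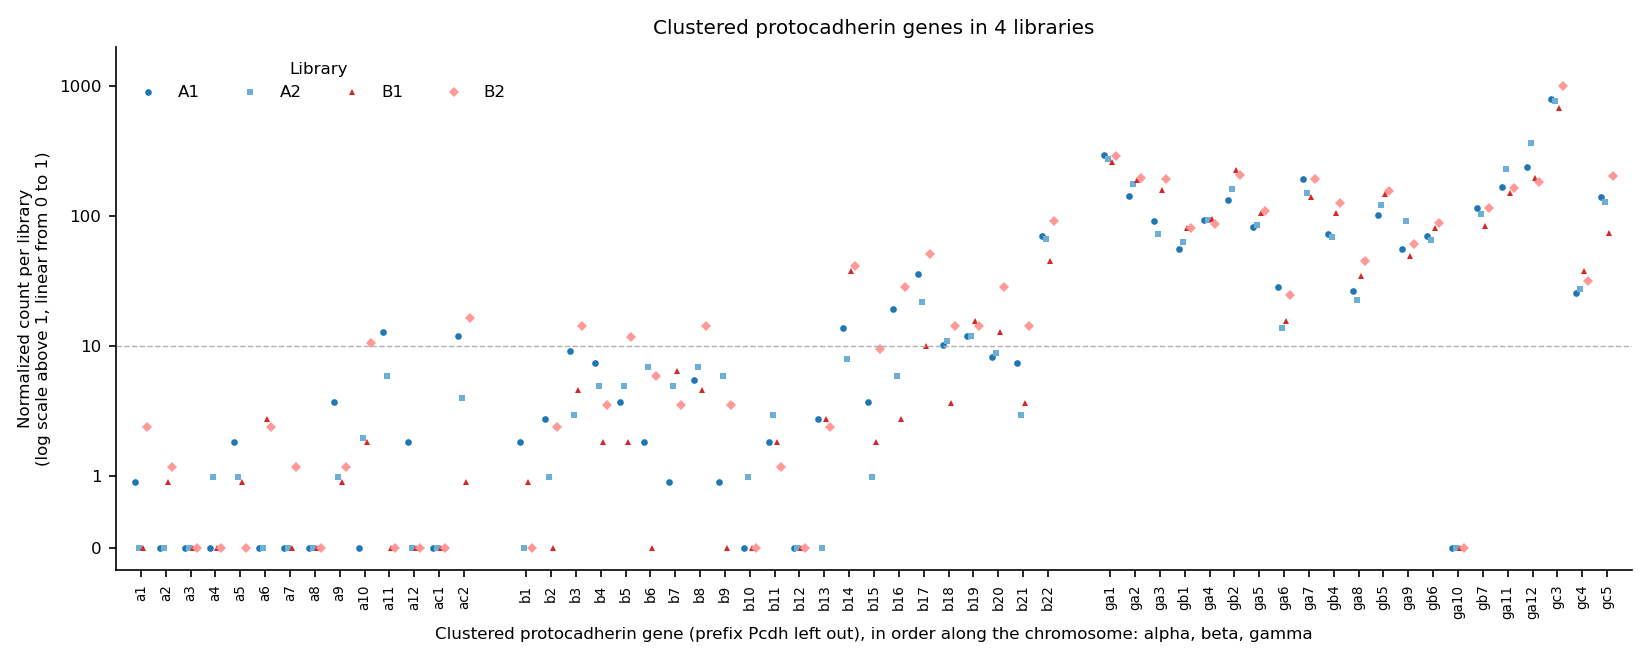
Normalized count of each clustered protocadherin gene (vertical axis, logarithmic above 1 and linear from 0 to 1) in the 4 libraries, in chromosome order along the horizontal axis; the dashed line marks a normalized count of 10. Of the gamma genes 20 of 21 have a mean of at least 10, of the beta genes 6 of 22 and of the alpha genes 0 of 14.

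Levels between genes were compared per kilobase of exon that no other annotated gene overlaps, since the constant exons of the alpha and gamma clusters belong to every member. On this scale the median was 43.8 normalized counts per kb for gamma, 1.5 for beta and 0.365 for alpha genes. The gamma median was 29.2 times the beta median per kb of unshared exon, 13.4 times per kb of total exon and 21 times with no length correction. By library the ratio per kb of unshared exon was 23.4 in A1, 25.1 in A2, 63.3 in B1, where beta genes were lowest, and 18.4 in B2, where they were highest. The highest beta gene, Pcdhb22, reached 11.1 per kb, and the lowest gamma gene with a length, Pcdhga6, 7.92 per kb. Only Pcdhb22 reached the range of the gamma genes, above Pcdhga6 and Pcdhgc4.

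**Figure D2:**
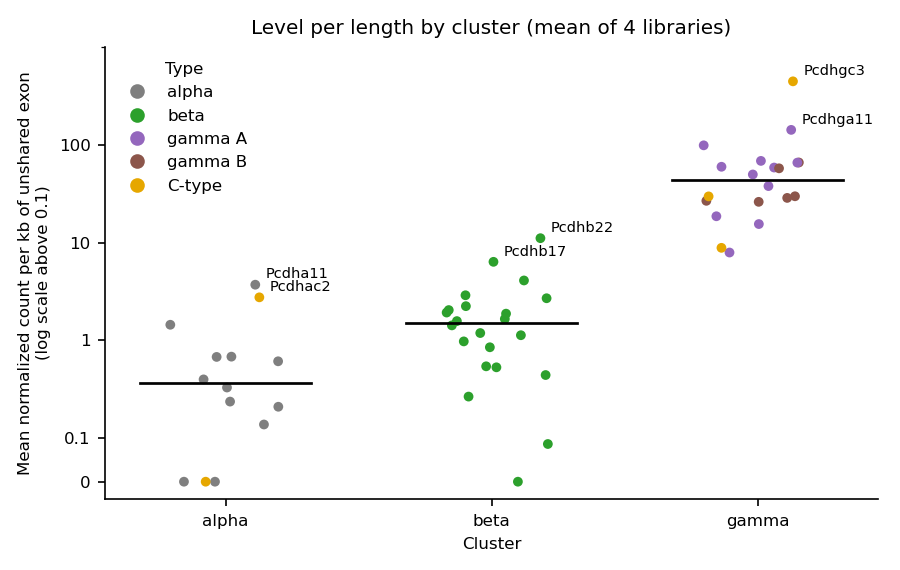
Mean normalized count per kb of unshared exon (vertical axis, logarithmic above 0.1) of each gene by cluster, with 1 point per gene, coloured by type, and a bar at the cluster median; Pcdhga10 has no unshared exon and is not drawn. The medians are 0.365 for alpha, 1.5 for beta and 43.8 for gamma genes.

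Pcdhga10 stood apart in its own cluster, listed at 0 between Pcdhgb6, with a mean of 76.4 normalized counts, and Pcdhgb7, with 105. All of its exon bases are covered by other annotated genes when strand is not considered, while 2613 are its own on its strand: the antisense gene Gm26672 runs across it. Over the whole table, 27 of 43 protein-coding genes covered in that way are listed at 0 (62.8%), against 3382 of 21670 (15.6%) that keep an unshared base. The sources used here do not say whether strand was used in counting, and the part of the overlap in this zero was not tested. Shared sequence was also described with 50-base windows over whole transcripts. The median share of a gene's windows found in the transcripts of no other gene was 39.9% for alpha, 95.5% for beta and 55.6% for gamma genes. For alpha and gamma genes the windows include the constant exons, which the unshared length already leaves out. These shares are therefore no measure of sequence shared beyond those exons. The part of shared sequence in the counts was not tested.

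None of the 52 clustered protocadherins with a count passed an adjusted p of 0.05 in the authors' deposited test, in any cluster, whereas 3.46% of all 30237 genes with a count did, and 5.12% of those with a mean of at least 10. At an unadjusted p under 0.05 there were 3, Pcdha11, Pcdhb14 and Pcdhga3, against 10.5% of all genes, and at an adjusted p under 0.1 there was 1, Pcdhga3, against 4.52%. Limma on the reads of the single libraries called 0 of 26 members with a mean of at least 10, with a smallest adjusted p of 0.108, against 2.01% of the 20465 genes tested, where called means an adjusted p under 0.05. It also called none with a pseudocount of 5 (2.42% of all genes called), with no filter (1.36%), or scaled by total counts (2.19%). With 2 libraries a group, intervals for single genes were wide, and where libraries come from 1 line the p-values measure only the spread between these samples.

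Among the 26 members with a mean of at least 10, the log2 fold change was above 0 for 17 and below 0 for 9, with a median of 0.28 beside 0.01 over all genes of that level. In 13 of the 26 both B libraries lay above both A libraries (26.4% of all genes of that level did so), and in 2 of the 26 both lay below (26.0% of all). The median was 0.31 for the 6 beta genes and 0.19 for the 20 gamma genes. The beta median was -0.11 without B2, 0.14 without A2, 0.85 without A1 and 0.99 without B1, so its sign and size rest on single libraries. The median over all members was 0.13 without B2, 0.17 without A2, 0.33 without A1 and 0.38 without B1, and 0.08 for the 18 members with a mean of at least 50. Summed over all members, the level was 3183 and 3280 normalized counts in group A and 3083 and 3951 in group B, so B1 was the lowest and B2 the highest library.

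In the alpha cluster, levels were near the limit of detection. Pcdhac2, its C-type member nearest the constant exons, had the highest mean over the 4 libraries, at 12.0 and 3.96 normalized counts in A and 0.917 and 16.6 in B, so the B libraries lay on either side of both A libraries. Per kb of unshared exon, Pcdha11, an alternate gene, ranked above it, at 3.71 against 2.76. This rank holds only where overlaps on either strand are left out, which gives Pcdha11 1268 unshared bases. On its own strand Pcdha11 has 4606, and Pcdhac2 has 3028 either way. With means of 4.71 and 8.35, Pcdha11 would then rank below Pcdhac2, and the strand setting is not known. Pcdha11 had 14 and 6 reads in A and none in either B library. That is at least 6.16-fold lower in B, taking 3 reads over both B libraries as the floor (at least 3.83-fold without A1, 8.33-fold without A2, 2.69-fold without B1 and 3.47-fold without B2), and the deposited test gave an unadjusted p of 0.0306 and an adjusted p of 0.356 (authors' deposited table). A second identifier that the table also names Pcdha11 lies between Pcdha9 and Pcdha11, where Pcdha10 is expected by order, and had 0 and 2 reads in A and 2 and 9 in B. Pcdha9 had 4 and 1 reads in A and 1 and 1 in B. The other 7 detected alpha genes had between 1 and 5 reads over all 4 libraries.

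In the beta cluster, the genes at the 3′ end held most of the reads. The 9 genes from Pcdhb14 to Pcdhb22 carried 81.5% of the beta level and included all 6 with a mean of at least 10. The 13 from Pcdhb1 to Pcdhb13 had means of 0 to 7.80, with a median of 0.851 normalized counts per kb against 2.7 for the later 9. The boundary was set after the values were seen. Across the 22 genes, level per kb and position had a Spearman rho of 0.53 and a Pearson r of 0.48, across genes of the same libraries and so only a description.

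Pcdhb22, the last gene of the array, was the most abundant beta gene, at 70.0 and 67.2 normalized counts in A and 44.9 and 91.0 in B (log2 fold change -0.01). Pcdhb17 was at 35.9 and 21.8 in A and 10.1 and 50.8 in B. For both genes B1 was the lowest and B2 the highest library, so the group means hide a wide spread. Pcdhb20 was at 8.29 and 8.90 in A and 12.8 and 28.4 in B, with both B libraries higher (log2 fold change 1.26, adjusted p = 0.989 in the authors' deposited table).

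Pcdhb14 had the largest fold change of any member with a mean of at least 10. It was at 13.8 and 7.91 normalized counts in A and at 37.6 and 41.4 in B, with no overlap of the groups. The log2 fold change was 1.86 with an adjusted p of 0.252 in the authors' deposited table, and limma gave 1.82 (SE 0.46, adjusted p = 0.108). Leaving out each library in turn moved the limma value between 1.45 and 2.18. Pcdhb16, named after its values were seen, was at 19.3 and 5.93 in A and 2.75 and 28.4 in B, so B1 and B2 lay at opposite ends.

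In the gamma cluster the C-type gene Pcdhgc3 was the most abundant clustered protocadherin, at 794 and 763 normalized counts in A and 681 and 1007 in B. It held 27.1% of gamma reads in A1 (Wilson 95% interval 25.6 to 28.7), 24.8% in A2 (23.3 to 26.3), 23.4% in B1 (21.9 to 24.9) and 28.3% in B2 (26.7 to 29.9). Per kb of unshared exon it was at 446, above Pcdhga11 at 142 and Pcdhga1 at 98.8. The unshared length of Pcdhga11 is 1256 bases over both strands and 2637 on its own strand, and that of Pcdhga1 is 2841 and 3247. On own-strand lengths Pcdhga1 would rank above Pcdhga11, with Pcdhgc3 still highest. The log2 fold change was 0.12, and the limma 95% interval ran from -0.47 to 0.65. The other 2 gamma C-type genes were lower. Pcdhgc5 was at 141 and 129 in A and 74.3 and 203 in B, again with the B libraries at either end. Pcdhgc4, which the table lists under the symbol Pcdhga8, was at 25.8 and 27.7 in A and 37.6 and 31.9 in B, the smallest C-type level of the gamma cluster.

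Of the alternate gamma genes, Pcdhga3 had the largest fold change. It was at 92.1 and 73.2 normalized counts in A and at 160 and 193 in B, so both B libraries lay well above both A libraries. The log2 fold change was 1.09 with an adjusted p of 0.0807 (authors' deposited table), and limma gave 1.09 (SE 0.28, 95% interval 0.38 to 1.79, adjusted p = 0.115). Its share of gamma reads was 3.14% and 2.37% in A and 5.47% and 5.41% in B, so the same order held within the cluster. Pcdhgb4 was at 72.8 and 69.2 in A and 106 and 127 in B (log2 fold change 0.71, adjusted p = 0.651 in the authors' deposited table).

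Pcdhga12, the last alternate gene, had the lowest fold change among the members with a mean of at least 10. It was at 240 and 366 normalized counts in A and 196 and 182 in B, with a log2 fold change of -0.68 (adjusted p = 0.620 in the authors' deposited table). Pcdhga11 was at 168 and 231 in A and 149 and 166 in B, and here too both B libraries were lower, by a small margin. Pcdhga9 was at 56.2 and 91.0 in A and 49.5 and 61.5 in B, and the groups overlapped. Pcdhga1, the first gene of the array, was level across libraries, at 297 and 273 in A and 263 and 290 in B, with a limma 95% interval of -0.57 to 0.48. Pcdhga2, the next gene, was at 142 and 178 in A and 190 and 195 in B (log2 fold change 0.27).

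Along the alternate gamma genes, fold changes tended to be higher at the 5′ end, though ratios between libraries of the same group also varied with position. Over the 17 genes whose mean reached 10, log2 fold change and position had a Pearson r of -0.47 and a Spearman rho of -0.47, a description across genes that share the same libraries. For single pairs of libraries, Spearman's rho was -0.40 for B1 over A1, -0.45 for B1 over A2, -0.23 for B2 over A1 and -0.19 for B2 over A2. Within groups it was -0.25 for A1 over A2 and -0.25 for B1 over B2, larger in size than both values for B2. The sign within a group depends only on which library is divided by which, so only the size can be compared. From Pcdhga1 to Pcdhgb5, 8 of 12 genes were above 0, all 8 with both B libraries above both A libraries (26.4% of all genes of that level, and a stretch chosen on these values), and the median was 0.39. From Pcdhga9 to Pcdhga12, 1 of 5 was above 0 and the median was -0.34. Summed, the first stretch was at 1319 and 1307 normalized counts in A and 1565 and 1705 in B, and the second at 650 and 857 in A and 559 and 614 in B. This boundary was also set after the values were seen, and no difference between the stretches was tested. Pcdhgb8, which the table classes as a polymorphic pseudogene and which is therefore no member, lies inside the second stretch, between Pcdhga11 and Pcdhga12. The counts, medians and sums of the stretch leave it out. It was at 282 and 413 in A and 139 and 171 in B (log2 fold change -1.16 and adjusted p = 0.0812, both from the authors' deposited table).

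The gamma A and gamma B subfamilies, whose genes alternate along the array and differ in sequence, also differed in median fold change, with gamma A near 0. Of the 11 gamma A genes with a count, 4 were above 0 and 7 below, with a median of -0.05. Of those below 0, Pcdhga1, Pcdhga4, Pcdhga6 and Pcdhga7 were close to it, at -0.04, -0.05, -0.07 and -0.05. The rest were Pcdhga9, Pcdhga11 and Pcdhga12 of the second stretch. Of the 6 gamma B genes, 5 were above 0 and 1 below, with a median of 0.44. Gamma B genes summed to 551 and 586 normalized counts in A and 726 and 774 in B, and gamma A genes to 1419 and 1578 in A and 1398 and 1544 in B. Among these sums of members, only those of gamma B did not overlap between groups. The gamma B median and sums leave out Pcdhgb8, which is no member and went the other way. Its log2 fold change was -1.16, from 282 and 413 in A and 139 and 171 in B. The gamma B pattern therefore holds for the protein-coding members only. The difference between the subfamilies was not tested.

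**Figure D3:**
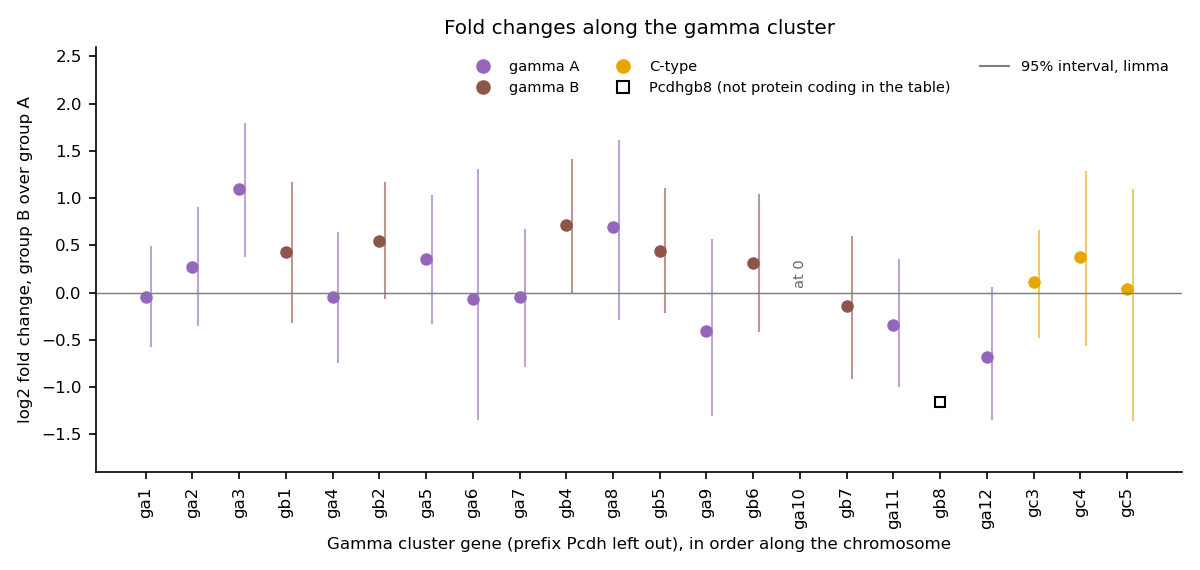
Log2 fold change of group B over group A (vertical axis, authors' deposited values) for the gamma genes in chromosome order, coloured by type, with limma 95% intervals; Pcdhgb8 is an open square and Pcdhga10 is marked as listed at 0. The highest value is that of Pcdhga3 at 1.09, and Pcdhga12 is lowest among members at -0.68.

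Summed levels of the alpha, beta and C-type genes ranked the 4 libraries in the same order as the feeder fibroblast markers, though some ranks were close. The 16 markers, which include collagens and the matrix proteins Fn1 and Postn, summed to 2.71e5 and 1.91e5 normalized counts in the A libraries and to 1.37e5 and 4.11e5 in the B libraries. Beta genes summed to 219, 181, 158 and 355 in the order A1, A2, B1, B2, alpha genes to 33.2, 14.8, 8.25 and 35.5, and C-type genes to 973, 924, 794 and 1259. All of these sums had the order B2, A1, A2, B1 from high to low, and the alpha and C-type sums share Pcdhac2. The C-type sum was mostly Pcdhgc3, whose mean was 811 of 987 normalized counts. Of the 5 C-type genes, 3 had this order (Pcdhac2, Pcdhgc3 and Pcdhgc5). Pcdhac1 was at 0, and Pcdhgc4 was at 25.8, 27.7, 37.6 and 31.9 in A1, A2, B1 and B2. The alpha order rests on 36, 15, 9 and 30 reads in A1, A2, B1 and B2. Counting error does not separate B2 from A1 or A2 from B1 there. The beta sums of A2 and B1 rest on 183 and 172 reads, and the C-type sums of A1 and A2 were close too. The alternate gamma genes did not follow the order B2, A1, A2, B1, at 1970, 2164, 2124 and 2318. The part of feeder RNA in the protocadherin levels was not tested, and in bulk RNA fewer cells of a type and less RNA per cell cannot be told apart.

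Gene by gene, only some members had this order. For the 6 beta genes whose mean reached 10, the median log2 ratio of B2 to B1 was 1.04 and that of A1 to A2 was 0.38. For the 3 C-type genes of that level these medians were 0.56 and 0.06, for the 17 alternate gamma genes 0.14 and -0.01, and for the 16 feeder markers 1.95 and 1.04. The single-gene order B2, A1, A2, B1 was found in 12 of 16 feeder markers, in 1 of 14 alpha, 3 of 22 beta and 2 of 21 gamma genes (6 of 57 members) and in 3.37% of all genes with a count. None of the 16 feeder markers passed the authors' deposited test, against 3.46% of all genes with a count, and none of the markers was at 0. Limma called 1, Pdgfra, higher in B (log2 2.52, adjusted p = 0.0456), beside 2.01% of all genes tested. For Pdgfra the limma value was 3.09 without B2 and 1.94 without B1, so B1 lay above B2. In 15 of the 16 markers B2 lay above B1, so Pdgfra does not stand for the list. Without B2 the summed beta level had a log2 ratio of -0.34, and without B1 it was 0.83, beside 0.36 with all libraries. The summed alpha level moved from -0.13 to -1.54 without B2, to 0.56 without B1 and to 0.56 without A1, and the summed gamma level from 0.11 to -0.04 without B2.

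**Figure D4:**
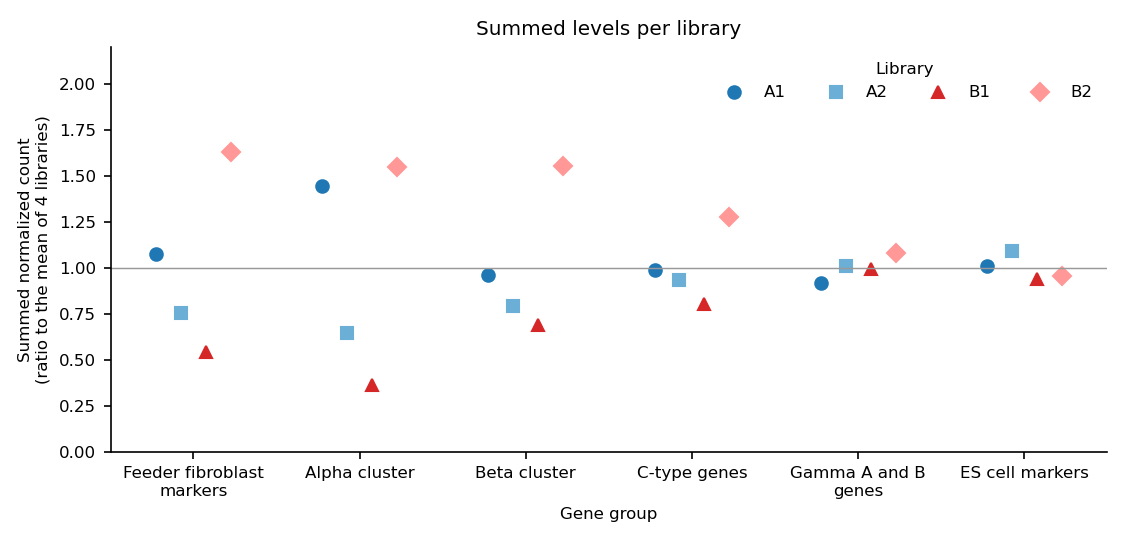
Summed normalized count of 6 gene groups in each library, as a ratio to the mean of the 4 libraries (vertical axis from 0), with 1 symbol per library. Feeder markers, alpha, beta and C-type genes share the order B2, A1, A2, B1, while alternate gamma genes and ES cell markers do not.

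Markers of other cell types also differed between libraries. Endoderm markers had medians of 2359 and 1167 normalized counts in A and 7357 and 2988 in B, and were highest in B1, the library with the lowest alpha, beta and C-type sums. None of the 14 passed the authors' deposited test, against 3.46% of all genes with a count. Limma called 3 of 13 higher in B (Lama1, Gata6 and Sox17, log2 1.83, 3.09 and 3.45). It called 2.01% of all genes tested, in either direction. In 10 of 13 both B libraries lay above both A libraries, beside 26.4% of the genes limma tested. Of the 14 neural markers, 12 were measured. Ncam1 and Sox1 fell in B and none rose (authors' deposited test), beside 1.92% of all genes with a count that fell. Limma called neither (adjusted p = 0.119 and 0.122) and called Neurod1 lower (-2.68, adjusted p = 0.0416). The median over the 10 neural markers with a mean of at least 10 was -0.50. Of the 10 macrophage markers Lyz2 and Ptprc rose in B in the authors' deposited test, with Ptprc at 1.84 and 11.9 in A and 45.8 and 35.5 in B. Limma called Lyz2 and not Ptprc (adjusted p = 0.129), and 1.54% of all genes with a count rose in the deposited test. The part of these cells in the protocadherin levels was not tested.

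Factors known to act on the clusters were measured in 20 of 22 cases, and Rest, the repressor of neuronal genes, was the 1 that fell in B. Rest was at 20233 and 24908 normalized counts in A and 15021 and 13151 in B, with a log2 fold change of -0.68 (adjusted p = 0.0314 in the authors' deposited table). Limma gave -0.68 with an adjusted p of 0.0660, so the call was not kept there. None rose, beside 1.92% of all genes with a count that fell and 1.54% that rose, and the median over the list was -0.16. Trim28, a corepressor, and Uhrf1, which guides maintenance methylation, were the most abundant, with log2 fold changes of -0.26 and -0.05. Others are named for their role with their values known: Ctcf, the boundary factor, was at -0.04, Smchd1, a silencer of the clusters, at 0.24, and the de novo methyltransferases Dnmt3a and Dnmt3b at -0.78 and 0.10. Without B1, limma called 4 of the list lower, Rest, Trim28, Dnmt3l and Dnmt3a, while it called 4.87% of all genes.

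Proteins that bind or signal with the protocadherin tail or with cadherins showed no call among 14 genes in the authors' deposited test. Of all genes with a count 3.46% were called, so no call in so short a list says little. The median log2 fold change was 0.09. The most abundant, Ctnnb1 and Ctnna1 (the catenins of adherens junctions), were at 0.13 and -0.05. Without B2, limma called Cyfip1 higher (0.53) and Ptk2b lower (-0.95), while it called 5.43% of all genes. The 12 non-clustered protocadherins are single genes outside the arrays (Pcdh1 and Pcdh12 lie beyond the gamma cluster and are also among its flanking genes). Of these 12, 10 were measured and none was called in the authors' deposited test, against the same 3.46%. The median was 0.15 over the 7 with a mean of at least 10. Pcdh1, the most abundant, was at 1362 and 2481 in A and 707 and 1055 in B, and Pcdh7 at 472 and 211 in A and 171 and 433 in B, with the B libraries at either end.

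None of the 15 listed genes flanking or lying between the clusters was called in the authors' deposited test, against 3.46% of all genes with a count. The 14 of 15 neighbours with a mean of at least 10 had a median log2 fold change of -0.16, and the most abundant, Taf7 (a subunit of the general transcription factor TFIID, between beta and gamma) and Zmat2, were at -0.08 and -0.03. Without B1, which leaves 1 library in group B, the limma log2 fold change of Diaph1 was -0.79. Diaph1 is named for its value in that fit. The noncoding RNA 4930517L18Rik, on chromosome 18 at 37618906 to 37619766 between the beta and gamma clusters, did fall in B and is named after its values were seen. It was at 56.2 and 37.6 normalized counts in A and at 3.67 and 4.73 in B, with a log2 fold change of -3.48 (adjusted p = 0.00310 in the authors' deposited table).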

How the data were processed

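Polyadenylated RNA of 4 cultures was sequenced. The submitters' processing notes name STAR, DESeq and mm10, with no strand setting or annotation. The deposited values are normalized counts (signal: gene counts divided by size factors) as group means, with a fold ratio, its log2 and a p-value and adjusted p-value from the authors' test. No group mean is labelled by genotype. The means of each group were split into the whole reads of its 2 libraries, which came out whole within 1e-06 for all 28616 (A) and 28353 (B) genes with a mean; this was tested on simulated data. Limma 3.58.1 (R 4.3.3) was fitted to log2(normalized count + 1) for 20465 genes whose mean reached 10, with Benjamini-Hochberg adjustment. Exon lengths come from GENCODE M21, which held all 57 members. The main test is the authors' deposited one at an adjusted p of 0.05. Members, lists and tests were chosen with earlier results of these data known. Named genes are members past the threshold, the C-type genes, in each cluster the 4 highest per kb and the 2 highest and 2 lowest fold changes, the called and the 2 most abundant genes of each list, and both Gsk3 genes. Alternatives were another threshold, pseudocount, filter and scaling, and each library left out.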

Additional observations from a re-analysis of the deposited data

How the results depend on the processing

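No clustered protocadherin passed an adjusted p of 0.05 in the authors' deposited test or in limma with all libraries, with a pseudocount of 5, with no filter, scaled by total counts, or without any 1 library; without A1 or without A2 limma called 0 genes in the whole table, so those fits say nothing of stability. At an adjusted p of 0.1 in the authors' deposited table there was 1 clustered protocadherin (1 in gamma), 2 regulators, 1 neighbour and 1 partner. Limma called 0 regulators under each of its 4 settings with all libraries, against 1 in the deposited test. Leaving out 1 library gave 0 to 4 regulators, 0 to 1 neighbours and 0 to 2 partners. The sign of some small log2 fold changes turned, and the cause was not tested: Pcdhac2 was -0.47 in limma with no filter; Pcdhb17 was -0.27 with all libraries, -0.19 with a pseudocount of 5, -0.27 with no filter and -0.29 scaled by totals; Pcdhgc5 was -0.13, -0.12, -0.13 and -0.14 in the same order. With 1 library left out, Pcdhb17 ranged from -1.39 to 0.84 (-0.62 without A2), Pcdhb22 from -0.60 to 0.40, Pcdhga1 from -0.11 to 0.026 (0.017 without A1), Pcdhgc3 from -0.19 to 0.37, Pcdhgc5 from -0.85 to 0.59 (-0.063 without A1, -0.19 without A2), Pcdh7 from -0.88 to 0.46 (0.37 without A1), Uhrf1 from -0.11 to 0.0078, Taf7 from -0.32 to 0.13 and Zmat2 from -0.15 to 0.087 (0.068 without A1). A group left with 1 library is assumed to vary like the other. No paired analysis was possible because the columns of the deposited table carry no replicate number. Low counts limit the alpha cluster, where no gene reached a mean of 10. The summed levels and the Pcdha11 ratio without each library were alternatives chosen after seeing the data.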
